A study of Homo sapiens with 6 samples.

Results

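The 9 genes described here make, break down and bind hyaluronan: the synthases HAS2 and HAS3, the precursor enzyme UGDH, the degrading enzymes and related proteins HYAL1, HYAL2, HYAL3, TMEM2 and CEMIP, and the receptor CD44. They were taken by gene symbol from a table of 25545 genes, in which all 9 were found, and this set of genes was chosen by their role and with the TPM and fold changes of this same comparison known. BT-549 cells, a long-established line of triple-negative breast cancer (TNBC) grown in RPMI1640 with fetal bovine serum and insulin, were transfected with a control siRNA (CsiRNA) or an siRNA against the lncRNA NEAT1 (NEAT1siRNA), and RNA was isolated 48 h later from cultures in triplicate. The sample titles write the cells as BT-549/tet-NEAT1CsiRNA and BT-549/tet-NEAT1siRNA, whereas the treatment they give is siRNA transfection, and all 6 libraries come from this 1 cell line. The study followed CD44 at the cell surface as a stemness marker, and the RNA-seq compared the transcriptomes of the groups, with 3 libraries in each. The labels do not say whether the triplicate cultures were set up independently, so p-values measure only the spread between these libraries, which may be technical.

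Hyaluronan is a long, unsulfated glycosaminoglycan (GAG) of the extracellular matrix. HAS enzymes polymerise it at the plasma membrane from UDP-glucuronic acid and UDP-N-acetylglucosamine and extrude it from the cell, hyaluronidases cut it into fragments, and lysosomal exoglycosidases finish its breakdown. Through its receptor CD44, hyaluronan couples the matrix to the cytoskeleton, and in breast cancer CD44 is widely used as a marker of stem-like and mesenchymal cells.

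Expression is given as TPM, that is, read numbers corrected for the length of the transcript and brought to the same total in every library, so that levels of different genes can be compared. Whole reads recovered from the deposited tables summed to between 15788579 and 20342155 per library. NEAT1 had 7.68 to 13.4 TPM with CsiRNA and 2.73 to 4.36 TPM with NEAT1siRNA, a log2 fold change of -1.41 (standard error 0.14). The mesenchymal markers VIM, FN1, CDH2 and ZEB1 were expressed in every library. Of the receptors expected to be absent or low in TNBC, ESR1 was listed at 0 and PGR had at most 0.0068 TPM. ERBB2 was expressed in every library, at 5.76 to 6.36 TPM. Of these 4 mesenchymal markers, FN1 (log2 fold change -0.47) and CDH2 (-0.34) were lower with NEAT1siRNA, with adjusted p of 0.00116 and 0.0186 from limma. The epithelial genes EPCAM, CDH1, KRT8, KRT5 and KRT14 were all below 0.3 TPM, with KRT18 at 1.04 to 2.07 TPM. Among the leucocyte and endothelial markers CD3E, CDH5 and VWF were listed at 0, and PTPRC and PECAM1 had at most 0.058 TPM. Within a group, deviations from the group mean moved with GC content across 10424 genes, and Spearman rho reached 0.68 for NEAT1siRNA replicate 1 and -0.73 for replicate 2. Of 10721 genes with a mean of at least 1 TPM, 14.0% were past an adjusted p of 0.05 in limma's moderated test on log2(TPM + 1), with 4.99% higher and 8.98% lower in NEAT1siRNA cells. This split moved with the scaling: 535 genes were higher and 963 lower, and with each library centred on its median 1158 were higher and 954 lower.

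Silencing NEAT1 went with a different balance of the hyaluronan genes. HAS3 and TMEM2 were lower, CD44 was lower by a smaller margin and HAS2 was higher, while HYAL2, HYAL3, CEMIP and UGDH overlapped between the groups and HYAL1 was barely detected. Of the 9 genes, 8 reached a mean of 1 TPM. Past the threshold, 3 of these 8 fell and 1 rose, where 8.98% and 4.99% of all tested genes were, 14.0% in either direction. Because of how the genes were chosen, their fold changes are given as a description, without p-values, and nothing is read from that count. The 3 NEAT1siRNA values lay wholly outside the CsiRNA range for 4 of the 8, with 3 below it and 1 above, where the shares over all tested genes were 30.3% in all, 19.3% below and 11.0% above. In these bulk libraries, a lower level in every cell and fewer cells with a high level cannot be told apart.

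**Figure D1:**
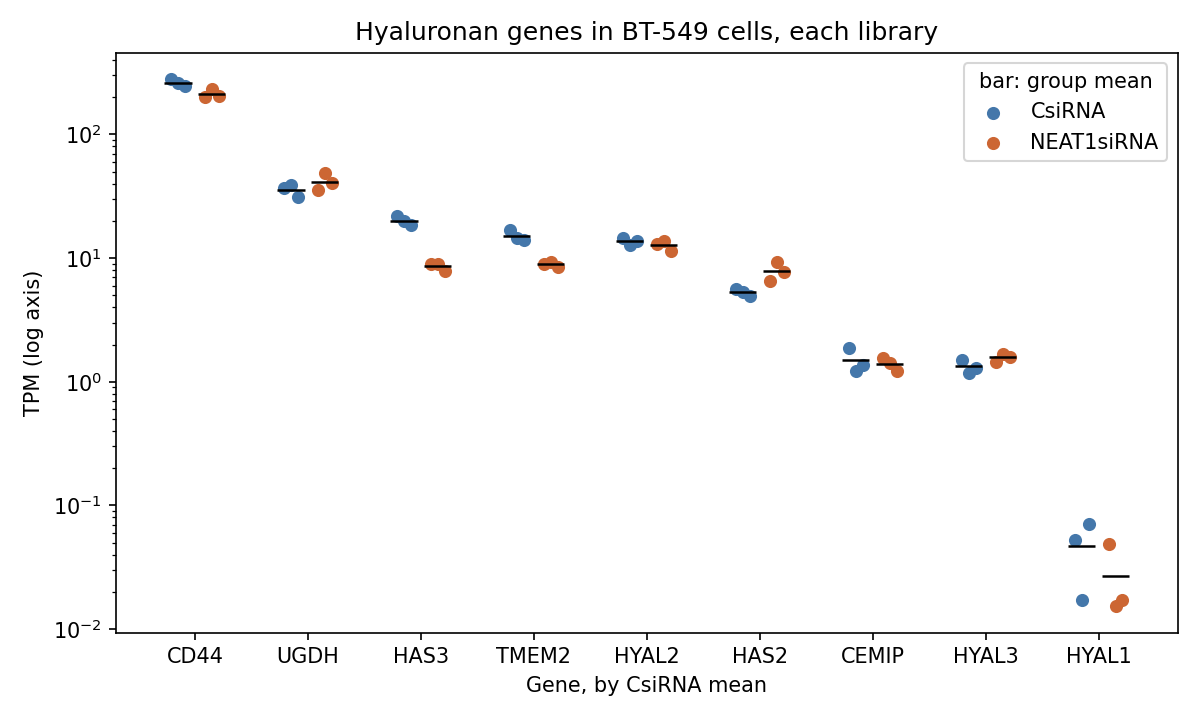
Expression of the 9 hyaluronan genes in each library, in TPM on a log axis, with 1 point per library and a bar at the group mean. HAS3, TMEM2 and CD44 sit lower in all 3 NEAT1siRNA libraries than in any CsiRNA library, HAS2 sits higher, and HYAL1 stays below 0.1 TPM throughout.

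Of the hyaluronan genes tested, HAS3 and TMEM2 had the largest falls and are shown with the 250 bases before their RefSeq start sites in GRCh38.p14. They were picked for their falls in this same comparison, and a shared cause was not tested. The HAS3 window is chr16:69107290-69107539 on the plus strand and the TMEM2 window, listed there as CEMIP2, is chr9:71768514-71768763 on the minus strand. Neither window overlaps an exon of the GENCODE annotation, but both lie within the span that it gives for their gene, since other transcripts start further upstream. Both are written 5′ to 3′, with matches to CACGTG (the E-box that MYC binds) and GGGCGG (the GC box that SP1 binds) in capitals, on either strand.
HAS3: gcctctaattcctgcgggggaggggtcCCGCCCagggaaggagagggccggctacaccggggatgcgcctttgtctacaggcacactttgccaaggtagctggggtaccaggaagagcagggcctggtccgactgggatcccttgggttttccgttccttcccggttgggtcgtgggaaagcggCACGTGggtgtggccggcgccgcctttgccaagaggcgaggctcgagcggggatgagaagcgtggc
TMEM2: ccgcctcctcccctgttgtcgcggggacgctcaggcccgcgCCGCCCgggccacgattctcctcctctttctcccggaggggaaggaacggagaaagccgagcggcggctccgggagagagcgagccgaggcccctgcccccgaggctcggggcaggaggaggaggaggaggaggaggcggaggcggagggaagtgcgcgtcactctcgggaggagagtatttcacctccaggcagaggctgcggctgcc
HAS3 held 1 match to CACGTG, from -66 to -61 relative to the start site, and 6.34% of 35116 RefSeq promoter windows of the same length held at least 1. Each window held 1 match to GGGCGG, which was present in 42.6% of all windows. Neither held a match to GGAATG (the core that TEAD factors bind, in 11.9% of windows), to TGANTCA (the AP-1 site, in 6.57%) or to the NF-κB consensus (in 5.21%). The motifs do not overlap each other in either window. GC content was 66% in the HAS3 window and 71.6% in that of TMEM2. These matches describe the letters of the windows, and no binding was measured here.

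HAS3, at chr16:69105653-69118719 of GRCh38 (plus strand), encodes a plasma membrane synthase. CsiRNA replicates 1 to 3 gave 21.7, 19.97 and 18.7 TPM, and NEAT1siRNA replicates 1 to 3 gave 8.88, 8.99 and 7.85 TPM. Every NEAT1siRNA value lay below 9 TPM and every CsiRNA value above 18 TPM. The mean fell from 20.1 ± 1.54 TPM to 8.57 ± 0.629 TPM (SD, n = 3 each), to 42.6% of the CsiRNA mean. The log2 fold change was -1.14 (standard error 0.095), and 9 of the 10721 genes tested had a lower one. About 2011 to 2286 reads per library were recovered with CsiRNA and 786 to 1016 with NEAT1siRNA, so that counting error was small. HAS3 shares 365 exon bases with CHTF8 on the opposite strand, whose log2 fold change was 0.075, not past the threshold. The fold change stayed between -1.22 and -1.05 and past the threshold in each of the 17 other settings. Those settings draw on the same libraries with which the gene was chosen, so they add no independent support.

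HAS2, at chr8:121612116-121641440 (minus strand), encodes the synthase that is best known from mesenchymal cells and from development of the heart. CsiRNA replicates 1 to 3 gave 5.62, 5.32 and 4.96 TPM, and NEAT1siRNA replicates 1 to 3 gave 6.55, 9.31 and 7.67 TPM. The groups did not overlap, and the NEAT1siRNA values were spread more widely than the CsiRNA values, with the highest in replicate 2. The mean rose from 5.30 ± 0.331 TPM to 7.84 ± 1.39 TPM (SD, n = 3 each), a log2 fold change of 0.48 (standard error 0.11). NEAT1siRNA replicate 2 is the library in which genes of low GC content were high, and the HAS2 transcript has a GC content of 37.2%. Without that library the log2 fold change was 0.36, and after removal of a fitted trend on GC content and length it was 0.47, both past the threshold. With no filter on TPM, where more genes are tested, HAS2 was no longer past it. All these settings draw on the libraries with which HAS2 was chosen, so they add no independent support. The part of GC content in the HAS2 values was not tested. The antisense lncRNA HAS2-AS1, which shares 251 exon bases with HAS2 on the opposite strand, had 0.974, 0.755 and 0.959 TPM with CsiRNA and 1.25, 1.10 and 1.47 TPM with NEAT1siRNA. Its values also did not overlap between the groups, at a log2 fold change of 0.26 (adjusted p 0.0872, limma), and 33 to 64 recovered reads per library. Over 16 other settings the fold change of HAS2-AS1 ran from 0.20 to 0.53 and passed the threshold in 2. HAS1 was listed at 0 in all 6 libraries.

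Since HAS3 went down and HAS2 up, their proportion differed between the groups. Taken within each library, it does not depend on the total to which a library is scaled. The transcripts differ in GC content, 37.2% for HAS2 and 52.1% for HAS3, and the part of GC content in the proportion was not tested. HAS3 was 3.87, 3.76 and 3.76 times HAS2 in TPM in CsiRNA replicates 1, 2 and 3. In NEAT1siRNA replicates 1, 2 and 3 it was 1.36, 0.966 and 1.02 times HAS2, so that these synthases were at nearly the same level in replicates 2 and 3. HAS3 made up 79.1 ± 0.268% of the summed HAS2 and HAS3 TPM with CsiRNA and 52.4 ± 4.51% with NEAT1siRNA (SD, n = 3 each). The summed TPM of the pair was 27.3, 25.3 and 23.6 with CsiRNA and 15.4, 18.3 and 15.5 with NEAT1siRNA. The rise in HAS2 was therefore smaller in TPM than the fall in HAS3, and transcript levels do not measure hyaluronan itself.

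**Figure D2:**
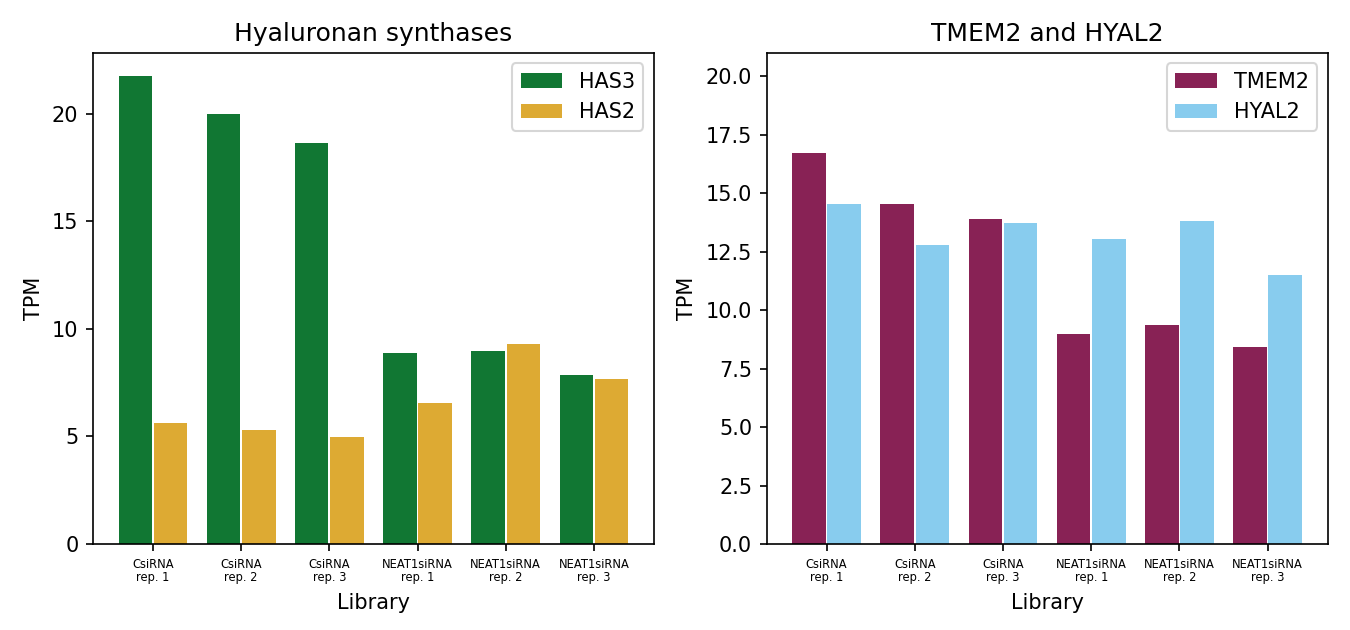
TPM of HAS3 and HAS2 (left) and of TMEM2 and HYAL2 (right) in each of the 6 libraries, as bars from 0. HAS3 exceeds HAS2 by 3.76 to 3.87 times in the CsiRNA libraries and by at most 1.36 times in the NEAT1siRNA libraries, and TMEM2 lies above HYAL2 in every CsiRNA library and below it in every NEAT1siRNA library.

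UGDH, at chr4:39498755-39528311 (minus strand), encodes the dehydrogenase that makes UDP-glucuronic acid. It had 37.1, 38.8 and 31.1 TPM with CsiRNA and 35.9, 48.7 and 40.2 TPM with NEAT1siRNA. The groups overlapped, and NEAT1siRNA replicate 2 was again the highest library. The mean was 35.7 ± 4.09 TPM with CsiRNA and 41.6 ± 6.53 TPM with NEAT1siRNA (SD, n = 3 each), and the log2 fold change of 0.21 (standard error 0.11) was not past the threshold. The UGDH transcript has a GC content of 39.5%, and the log2 fold change was 0.095 without NEAT1siRNA replicate 2. It passed the threshold in 3 of 17 other settings, at 0.22 with the trend on GC content removed, with or without the replicate block, and at 0.27 with voom on recovered reads. The part of GC content in the UGDH values was not tested. UGDH shares 513 exon bases with UGDH-AS1 on the opposite strand, which had at most 0.365 TPM. UGDH stood at 1.32 to 1.54 times the summed TPM of HAS2 and HAS3 in the CsiRNA libraries, and at 2.33 to 2.66 times in the NEAT1siRNA libraries.

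Of 11 other genes on the way to the UDP-sugars, all were tested. Past the threshold, where 4.99% of all tested genes were higher and 8.98% lower, 1 was higher and 2 were lower of these 11. UAP1, which makes UDP-N-acetylglucosamine, had the highest level among them and fell from 344 ± 33.1 TPM to 267 ± 21.96 TPM (SD, n = 3 each), a log2 fold change of -0.37 (adjusted p 0.00703, limma). Hexokinase HK1 fell from 17.6 ± 0.986 TPM to 14.0 ± 1.33 TPM, a log2 fold change of -0.31 (adjusted p 0.0298, limma). Phosphoglucomutase PGM1, which links glucose 6-phosphate and glucose 1-phosphate, rose from 13.1 ± 0.864 TPM to 16.6 ± 1.39 TPM, a log2 fold change of 0.32 (adjusted p 0.0271, limma). The NEAT1siRNA values lay outside the CsiRNA range for 4 of the 11, these 3 among them, where 30.3% of all tested genes did. Nothing is read from that count. The 8 others, with GFPT1 and GFPT2 of the hexosamine pathway and UGP2 among them, were not past the threshold, although for hexokinase HK2 (log2 fold change -0.28) the groups did not overlap, and the median of the 11 was -0.037, against -0.044 over all genes tested. Each call was lost without some library. That of UAP1 was lost without CsiRNA replicate 1 (-0.31) or NEAT1siRNA replicate 3 (-0.32). That of HK1 was lost without CsiRNA replicate 1 (-0.28), CsiRNA replicate 2 (-0.30) or NEAT1siRNA replicate 3 (-0.24). That of PGM1 was lost without CsiRNA replicate 2 (0.33), CsiRNA replicate 3 (0.27) or NEAT1siRNA replicate 1 (0.29). Without CsiRNA replicate 2 the rise of PGM1 was not smaller, but its standard error was 0.123, against 0.095 with all 6 libraries.

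TMEM2, which current annotation calls CEMIP2, maps to chr9:71683366-71816690 (minus strand) and encodes a transmembrane protein reported as a cell-surface hyaluronidase. CsiRNA replicates 1 to 3 gave 16.7, 14.5 and 13.9 TPM, and NEAT1siRNA replicates 1 to 3 gave 8.997, 9.36 and 8.43 TPM. All NEAT1siRNA values lay below the CsiRNA range and close to each other. The mean fell from 15.1 ± 1.48 TPM to 8.93 ± 0.468 TPM (SD, n = 3 each), to 59.3% of the CsiRNA mean, and the log2 fold change was -0.69 (standard error 0.096). Over the 17 other settings it ran from -0.75 to -0.62 and stayed past the threshold in each. As for HAS3, those settings draw on the libraries with which TMEM2 was chosen, so they add no independent support. On average 1736 reads per library were recovered.

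CEMIP, at chr15:80779343-80951776 (plus strand), encodes a secreted protein of the same family as TMEM2 that promotes hyaluronan breakdown. It had 1.87, 1.23 and 1.36 TPM with CsiRNA and 1.56, 1.43 and 1.21 TPM with NEAT1siRNA. The groups overlapped almost fully, the log2 fold change was -0.044 (standard error 0.11), and its sign depended on the setting. The low level of CEMIP rests on 184 to 282 reads per library. MESD, a gene on the opposite strand that shares 224 exon bases with CEMIP, was lower with NEAT1siRNA at a log2 fold change of -0.55 (adjusted p 0.000197, limma). Whether the counting used strand is not given in the sources used here, so reads in the stretches that opposite genes share cannot be assigned with certainty.

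HYAL2, a GPI-anchored hyaluronidase of the cell surface that is thought to act with CD44, maps to chr3:50317790-50322782 (minus strand). It had 14.5, 12.8 and 13.7 TPM with CsiRNA and 13.0, 13.8 and 11.5 TPM with NEAT1siRNA. The values overlapped, and the log2 fold change was -0.094 (standard error 0.096), not past the threshold here or in any of the 17 other settings. HYAL2 shares 509 exon bases on the same strand with TUSC2, so its level is uncertain. TMEM2 was 1.15, 1.14 and 1.01 times HYAL2 in CsiRNA replicates 1, 2 and 3, and 0.690, 0.678 and 0.733 times HYAL2 in NEAT1siRNA replicates 1, 2 and 3.

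HYAL1 and HYAL3 are neighbours at chr3:50299890-50312381 and chr3:50292831-50299405, both on the minus strand. HYAL1, the lysosomal hyaluronidase, had 3, 1 and 5 recovered reads with CsiRNA and 3, 1 and 1 with NEAT1siRNA, 14 in all, and no difference was detectable at this depth. HYAL3, whose own enzyme activity is less clear, had 1.5003, 1.18 and 1.30 TPM with CsiRNA and 1.44, 1.68 and 1.60 TPM with NEAT1siRNA. The groups overlapped and the log2 fold change of 0.15 (standard error 0.098) was not past the threshold. HYAL3 rests on 44 to 70 reads per library and shares 232 exon bases with NAA80 on the same strand, so its level is uncertain. Of the summed TPM of these 5 degrading genes, TMEM2 made up 47.6 ± 1.62% with CsiRNA and 36.2 ± 0.763% with NEAT1siRNA, and HYAL2 43.4 ± 1.67% and 51.7 ± 1.02% (SD, n = 3 each).

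Of the other breakdown genes, 3 were tested and none was past the threshold, among them HEXA and GUSB, which act in lysosomes. GUSB had 9.19 ± 0.426 TPM with CsiRNA and 7.83 ± 0.120 TPM with NEAT1siRNA (SD, n = 3 each), without overlap between the groups, at a log2 fold change of -0.21 (adjusted p 0.136, limma). HEXA had 11.5 ± 1.02 TPM with CsiRNA and 11.2 ± 0.483 TPM with NEAT1siRNA (SD, n = 3 each). SPAM1 and HYAL4 were listed at 0.

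CD44, at chr11:35138882-35232402 (plus strand), had the highest level of the 9 genes. CsiRNA replicates 1 to 3 gave 279, 259 and 248 TPM, and NEAT1siRNA replicates 1 to 3 gave 200.03, 231 and 205 TPM. The groups did not overlap, and NEAT1siRNA replicate 2 lay nearest to the CsiRNA range. The mean was 262 ± 15.5 TPM with CsiRNA and 212 ± 16.8 TPM with NEAT1siRNA (SD, n = 3 each), or 80.8% of that with CsiRNA, at a log2 fold change of -0.31 (standard error 0.087). This value was past the threshold with all 6 libraries, but not with each library left out in turn. It was no longer past the threshold without CsiRNA replicate 1 (-0.26), CsiRNA replicate 2 (-0.31), NEAT1siRNA replicate 1 (-0.27) or NEAT1siRNA replicate 3 (-0.28). The same was so with no filter on TPM. Without CsiRNA replicate 2 the fall was not smaller (-0.314, against -0.307 with all 6 libraries), but the standard error was 0.115. A lost call thus also reflects the smaller number of libraries. In 6 settings the libraries were rescaled, the trend on GC content was removed or recovered reads were used. There the fold change ran from -0.28 to -0.25 and was past the threshold. Every setting draws on the libraries with which CD44 was chosen, so none adds independent support. CD44 was 10.2 to 10.5 times the summed TPM of HAS2 and HAS3 in the CsiRNA libraries and 12.6 to 13.2 times in the NEAT1siRNA libraries. Of the 4 mesenchymal markers, FN1 and CDH2 were lower in the same libraries, while VIM (log2 fold change -0.155, adjusted p 0.243, limma) and ZEB1 (-0.023, adjusted p 0.916, limma) overlapped between the groups and were not past the threshold. The part of these markers in the CD44 result was not tested. CD44 shares 84 exon bases with CD44-AS1 and 70 with CD44-DT on the opposite strand. The table lists CD44 once, so the standard and variant isoforms are not separated, and mRNA levels do not give the amount of CD44 on the cell surface.

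The only other hyaluronan receptor that was tested, HMMR, had 38.7 ± 0.814 TPM with CsiRNA and 38.2 ± 4.19 TPM with NEAT1siRNA (SD, n = 3 each) at a log2 fold change of -0.023 (adjusted p 0.909, limma). The endothelial hyaluronan receptors LYVE1, STAB1 and STAB2 and the innate receptors TLR2 and TLR4 had at most 0.08 TPM in any library, and layilin (LAYN) had a mean of 0.673 TPM with CsiRNA and 0.538 TPM with NEAT1siRNA. TLR2, singled out after its values were seen, had 5, 6 and 5 recovered reads with CsiRNA and 1 in each NEAT1siRNA library. Among 16 proteins that bind hyaluronan in the matrix, 5 were listed at 0, 10 had a mean under 1 TPM, and only the proteoglycan versican (VCAN) was tested. VCAN fell from 18.1 ± 2.58 TPM to 10.8 ± 0.825 TPM (SD, n = 3 each), or by a log2 fold change of -0.69 (adjusted p 4.83e-05, limma), and all 3 NEAT1siRNA libraries were below the lowest CsiRNA library.

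Of 12 genes whose proteins act on or with CD44, 8 were tested. Past the threshold, 2 were lower and 1 was higher, where 8.98% and 4.99% of all tested genes were. The membrane protease MMP14, which can shed CD44, fell from 112 ± 4.796 TPM to 69.2 ± 4.68 TPM (SD, n = 3 each), or by a log2 fold change of -0.69 (adjusted p 6.67e-06, limma). NF2, which encodes merlin, a binding partner of the CD44 tail and tumour suppressor, fell from 43.7 ± 2.83 TPM to 30.7 ± 1.31 TPM, a log2 fold change of -0.49 (adjusted p 0.000508, limma). RDX, which encodes radixin and links CD44 to actin, rose from 41.5 ± 0.710 TPM to 53.9 ± 6.47 TPM, a log2 fold change of 0.36 (adjusted p 0.0105, limma). The call of RDX was lost without CsiRNA replicate 1 (0.35). Its relatives EZR and MSN were not past the threshold, with log2 fold changes of -0.13 and -0.031, and neither were the sheddases ADAM10 and ADAM17, at -0.10 and -0.15. ESRP1 and ESRP2, splicing factors that favour variant CD44 in epithelial cells, stayed below 0.08 TPM. ESRP1, singled out after its values were seen, had 1 recovered read in each CsiRNA library and 6, 4 and 5 in NEAT1siRNA replicates 1 to 3.

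As a comparison, 16 genes that build the sulfated GAGs were followed, of which 14 were tested. Past the threshold, 1 was higher and 2 were lower, where 4.99% and 8.98% of all tested genes were. The heparan sulfate polymerase EXT1 fell from 59.6 ± 5.24 TPM to 47.6 ± 1.348 TPM (SD, n = 3 each), a log2 fold change of -0.32 (adjusted p 0.0215, limma). CHPF2, a chondroitin polymerising factor, fell by 0.31 on the log2 scale (adjusted p 0.0309, limma). CSGALNACT1, which starts chondroitin chains, rose from 4.17 ± 0.494 TPM to 5.38 ± 0.351 TPM, a log2 fold change of 0.31 (adjusted p 0.0378, limma). The calls of EXT1 and CHPF2 were lost without CsiRNA replicate 1 (-0.25 for each), without CsiRNA replicate 2 (-0.31 and -0.33) and without NEAT1siRNA replicate 3 (-0.29 and -0.26). That of CSGALNACT1 was lost without CsiRNA replicate 2 (0.29), CsiRNA replicate 3 (0.25), NEAT1siRNA replicate 2 (0.26) or NEAT1siRNA replicate 3 (0.32). Without CsiRNA replicate 2 the fall of CHPF2 was not smaller, but its standard error was 0.122, against 0.094 with all 6 libraries. Over the whole list of 68 genes apart from the 9, 38 were tested, and 3 were higher and 7 lower past the threshold, that is 10 of 38 where 14.0% of all tested genes were past it. The median log2 fold change of the 38 was -0.13, against -0.044 over all genes tested, and 29 were negative, as were 6507 of the 10721 genes tested. These related genes were listed with earlier results of these data known, so their p-values and counts are not independent evidence of a direction, and nothing is read from the share. Without CsiRNA replicate 1 or NEAT1siRNA replicate 3, 3 of them were lower, and without CsiRNA replicate 2, 4 were.

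**Figure D3:**
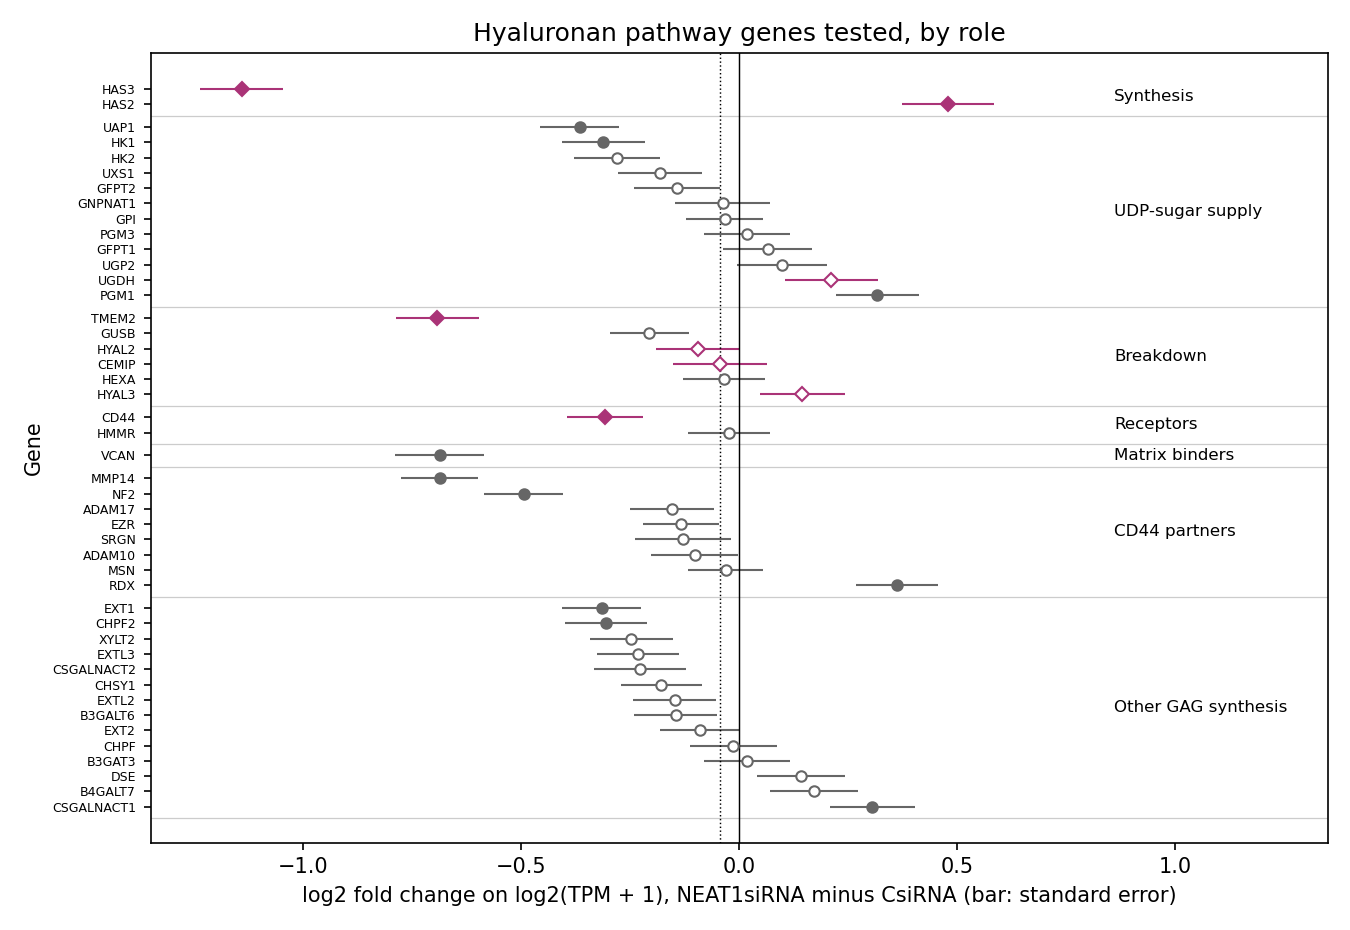
Log2 fold change (NEAT1siRNA minus CsiRNA, on log2(TPM + 1)) of the tested genes by role, each with its standard error. Diamonds are the 8 tested hyaluronan genes, circles the other listed genes, filled symbols are past an adjusted p of 0.05 and the dotted line is the median of all genes tested, -0.044; HAS3 lies farthest to the left at -1.14, HAS2 farthest to the right at 0.48.

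With CsiRNA, the order by mean TPM was CD44 (262), UGDH (35.7), HAS3 (20.1), TMEM2 (15.1), HYAL2 (13.7), HAS2 (5.30), CEMIP (1.49), HYAL3 (1.33) and HYAL1 (0.0467). The ranges of neighbours overlapped for TMEM2 and HYAL2 and for CEMIP and HYAL3, and not for the other neighbours. With NEAT1siRNA, the order was CD44 (212), UGDH (41.6), HYAL2 (12.8), TMEM2 (8.93), HAS3 (8.57), HAS2 (7.84), HYAL3 (1.57), CEMIP (1.40) and HYAL1 (0.0271). There the ranges overlapped for TMEM2 and HAS3, for HAS3 and HAS2, and for HYAL3 and CEMIP. HAS3 thus moved from the third place to the fifth, with a range that overlapped those of TMEM2 and HAS2. Within the NEAT1siRNA libraries, TMEM2 was higher than HAS3 in all 3, and HAS3 was higher than HAS2 in 2.

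The coefficient of variation over the 3 CsiRNA libraries was 5.90% for CD44, 6.25% for HAS2, 7.68% for HAS3, 9.83% for TMEM2 and 22.9% for CEMIP. Relative to the CsiRNA mean on the log2(TPM + 1) scale, HAS3 was at -1.09, -1.08 and -1.25 and TMEM2 at -0.68, -0.63 and -0.77 in NEAT1siRNA replicates 1, 2 and 3. For the median of all genes tested, these values were -0.051, 0.020 and -0.11. CD44 was at -0.39, -0.18 and -0.36 in the same libraries, with the smallest shift in replicate 2.

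The tested genes most like CD44 and HAS3 were ranked by the root mean square distance of their centred log2(TPM + 1) values over the 6 libraries. For CD44 they were WDR43 at 0.0146, SERINC5 at 0.0230, GPAM at 0.0236, FANCM at 0.0248 and PCID2 at 0.0248, with a median distance of 0.164 over 10720 genes. For HAS3 they were PPIF at 0.0364, STX2 at 0.0427, AMIGO2 at 0.0499, ADAMTS1 at 0.0686 and BDKRB1 at 0.0736, with a median distance of 0.556. Their log2 fold changes ran from -1.19 for STX2 to -1.03 for ADAMTS1, close to that of HAS3. PPIF, a mitochondrial cyclophilin, went from 45.1 ± 2.22 TPM to 20.03 ± 1.19 TPM, and ADAMTS1, a protease that cuts versican, from 12.5 ± 1.30 TPM to 5.64 ± 0.602 TPM (SD, n = 3 each). This likeness rests on the same group difference for which the genes were read out.

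**Figure D4:**
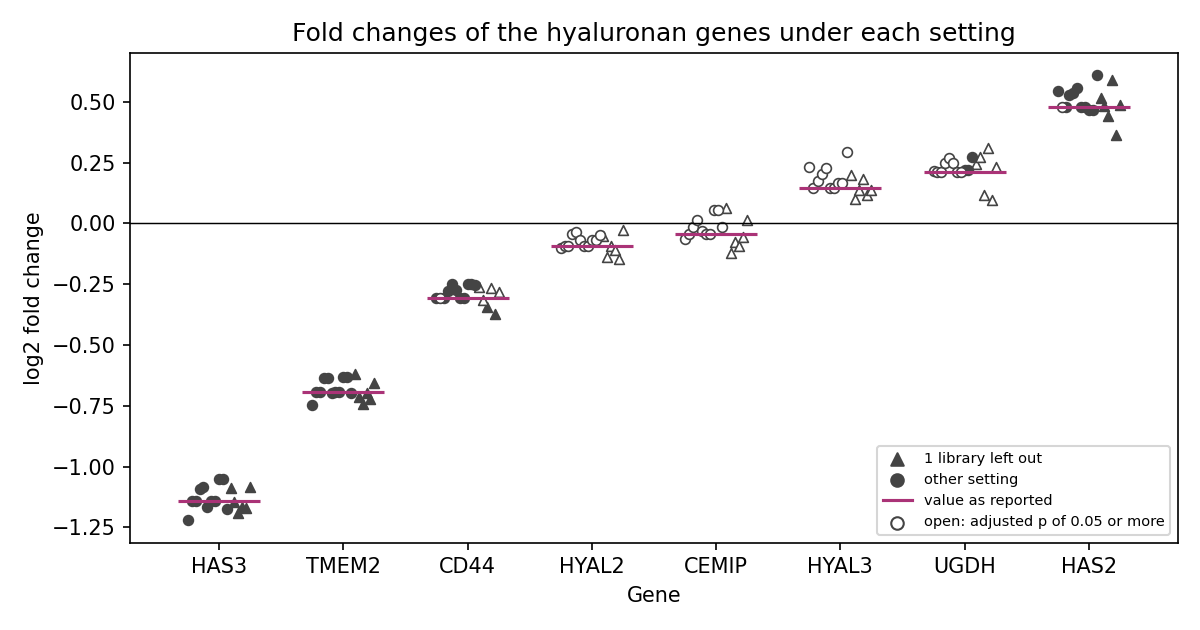
Log2 fold change of the 8 tested hyaluronan genes as reported (bar) and under each other setting, with triangles where 1 library was left out, circles for other settings and open symbols where the gene was not past an adjusted p of 0.05. HAS3 stays between -1.22 and -1.05, TMEM2 between -0.75 and -0.62, and CEMIP lies on either side of 0.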

How the data were processed

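The deposited tables come from RNA-seq of BT-549 cells, with stranded mRNA libraries. Per the labels, the authors aligned reads with STAR to GRCh38 and compared groups with DESeq2. The counter and the tool that made the TPM are not given in the sources used here. The first table holds TPM computed by the authors, with 1 column per library. From the second, only the authors' mean normalized count was used, a signal averaged over the 6 libraries after size factors. Its other columns hold the authors' fold changes and p-values and were not used.

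Values were taken as log2(TPM + 1), a mean of 1 TPM or more was required of a gene, and groups were compared with limma 3.58.1 (lmFit, eBayes with trend) in R 4.3.3 with Benjamini-Hochberg adjustment at 0.05 over all genes tested. This replaces the study's DESeq2, since the per-library values are not counts. Standard errors are those of this moderated test. An exact two-sided permutation test of 3 libraries against 3 cannot go below p = 0.1 and was not used. The fold changes understate those of genes with low TPM. Whole reads were recovered by joining both tables. The share of values lying within 0.05 of whole reads was 99.8% for genes whose mean normalized count was below 5 and 18.5% above 500, so that the reads of HAS3, TMEM2 and CD44 are approximate. TPM depend on 4 short RNAs (RN7SK, RN7SL1, RN7SL2 and RPPH1), which held 64.4% to 68.1% of the TPM of a library. Positions, transcript length and GC content are from GENCODE v44 of GRCh38, where 22278 genes matched by current and 783 by older symbol. Promoter sequences are from RefSeq.

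The members and the lists of related genes were chosen with earlier results of these data known. Named are the 9 members, NEAT1, HAS1, HAS2-AS1, per role the genes past the threshold (at most 5) or otherwise those with the highest TPM, and the genes nearest to CD44 and to HAS3. Genes named beyond that rule are examples of a role or overlap a member. Another 17 settings were tried: the pseudocount, the filter, the scaling, the variance model, the replicate block, a fitted trend on GC content and length, voom on the recovered reads, and each library left out in turn. Some listed genes are counted but not reported here by name. The procedure was tested on simulated libraries. Python 3.11.15 was used for the rest.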

Additional observations from a re-analysis of the deposited data

How the results depend on the processing

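HAS3, TMEM2, NEAT1, VCAN, MMP14 and NF2 kept their direction and stayed past the threshold in all 17 other settings, HAS2 in 16 and CD44 in 12, with no change of direction for the latter pair. All settings draw on the same libraries, and the hyaluronan and related genes were listed with earlier results known. The settings thus describe dependence on the processing and add no independent support. With no filter on TPM, 242 genes were higher and 263 lower, 2 of the 9 hyaluronan genes were past the threshold, and 0 of the listed genes were higher (3 at the reported setting, all by limma) and 3 lower (7). Quantile normalization gave 1082 higher genes, median centring 1158, TPM rescaled without the 4 short RNAs 918, and voom on recovered reads 1244. With the trend on GC content and length removed, 1703 genes were higher and 1764 lower and 11 listed genes were lower. The same with the replicate block gave 1682, 1709 and 11. With 1 library left out, 376 to 540 genes were higher and 383 to 1590 lower, 3 to 4 of the hyaluronan genes were past the threshold, and 1 to 2 listed genes were higher and 3 to 10 lower. The lower genes were 383 without CsiRNA replicate 1, 1590 without NEAT1siRNA replicate 2 and 425 without NEAT1siRNA replicate 3, and 1 listed gene was higher without CsiRNA replicate 2 or 3. The causes were not tested.

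Genes not past the threshold changed sign in some settings. CEMIP was at 0.013 with median centring, at 0.054 with the trend removed, with or without the block, and between -0.12 and 0.064 with 1 library left out. HEXA was at 0.027 with quantile normalization, 0.022 with median centring, 0.054 with the trend removed, with or without the block, 0.009 with voom and between -0.081 and 0.030 with 1 library left out. HMMR was at 0.014 with quantile normalization, 0.034 with median centring, 0.009 without the short RNAs, 0.030 with voom and between -0.11 and 0.022 with 1 library left out.

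The deviations of same-numbered libraries from their group means correlated across genes at -0.030, 0.25 and -0.11 for replicates 1, 2 and 3. Differently numbered libraries ran from -0.40 to 0.40, so a pairing by number was neither shown nor excluded. The replicate block as such gave 579 higher and 1061 lower genes and 4 hyaluronan genes past the threshold. Depth limits HYAL1, HYAL3, HAS2-AS1 and the genes listed at or near 0.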
